A study of Homo sapiens with 22 samples.

Results

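ATAC-seq peak lists of KMS34, a multiple myeloma cell line that the labels give as t(4;14), were compared after 10 days in the NSD2 degrader NSD2LDD (2 libraries) and after 10 days in the vehicle DMSO (2 libraries). These 4 libraries were taken by their labels from the 22 of the series, which holds 10 KMS34 and 12 KMS11 libraries in 11 groups of 2. The other KMS34 groups, all t(4;14), were NSD2LDD at day 4, DMSO at day 4, and day 0 with no treatment named. The KMS11 groups were the same 5 conditions in t(4;14) cells and a day 0 group with the genotype label TKO, which the labels do not spell out. Both groups compared carry the translocation and differ in the labels only by the compound. The labels give no concentration of NSD2LDD. The 2 libraries of a group are called duplicates of 1 cell line, with no word on whether separate cultures were used, so p-values cover the spread between these samples, which may be technical.

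ATAC-seq uses the Tn5 transposase to cut and tag DNA that is not packed in nucleosomes, so that a peak marks an accessible stretch of chromatin. NSD2 is a histone methyltransferase that places dimethylation on lysine 36 of histone H3, a mark that spreads over gene bodies and intergenic chromatin and opposes the silencing methylation of lysine 27. In t(4;14) myeloma the translocation puts NSD2 under immunoglobulin heavy chain enhancers, and the methyltransferase is made in excess.

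The 64337 merged regions of the 4 lists, on chromosomes 1 to 22 and X, were largely shared: 30157 (46.9%) were called in every library. A region called in both libraries of one group and in neither of the other is named after the group that had it, NSD2LDD-only or DMSO-only. There were 1352 NSD2LDD-only regions, 2.1% of all, and 1931 DMSO-only regions, 3% of all. Most of both kinds lay away from gene starts, and the few that covered a promoter are shown first because their sequences can be read. Among RefSeq promoter windows of 300 bases (250 before and 50 after a gene's start, GRCh38.p14; 22012 windows of 15712 genes), NSD2LDD-only regions overlapped 15 windows and DMSO-only regions 38. The promoters below were covered over at least 200 bases in both libraries of the group named, and at 0 bases in both libraries of the other. They are 6 of 12 such promoters whose regions were found with full and with equal list lengths, shown because they hold at least 1 of the motifs below; 4 others (TEKT1, PIEZO2, TRHDE and BAHCC1) hold one too, and GTPBP2 and NHS hold none. Each is given 5′ to 3′ on the strand of its gene, with capitals marking matches on either strand to GGGCGG (the core bound by SP factors), GGGA and CC with 4 bases between (an NF-kappaB form) or GAAA and GAAA with 2 bases between (an interferon regulatory factor form).
SNED1, NSD2LDD-only, chr2:240998368-240998667, plus strand: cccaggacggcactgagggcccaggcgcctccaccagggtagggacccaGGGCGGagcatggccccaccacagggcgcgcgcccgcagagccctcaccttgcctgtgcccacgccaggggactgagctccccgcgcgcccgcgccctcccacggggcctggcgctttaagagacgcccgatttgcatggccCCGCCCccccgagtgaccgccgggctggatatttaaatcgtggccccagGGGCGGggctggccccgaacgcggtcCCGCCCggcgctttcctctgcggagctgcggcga
ATP2A1, NSD2LDD-only, chr16:28879793-28880092, plus strand: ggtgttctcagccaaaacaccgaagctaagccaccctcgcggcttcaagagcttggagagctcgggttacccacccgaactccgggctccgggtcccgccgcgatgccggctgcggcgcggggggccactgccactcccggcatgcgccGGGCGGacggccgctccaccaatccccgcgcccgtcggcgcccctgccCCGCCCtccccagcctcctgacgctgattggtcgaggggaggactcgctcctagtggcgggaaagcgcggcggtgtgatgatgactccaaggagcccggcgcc
SPSB4, DMSO-only, chr3:141051097-141051396, plus strand: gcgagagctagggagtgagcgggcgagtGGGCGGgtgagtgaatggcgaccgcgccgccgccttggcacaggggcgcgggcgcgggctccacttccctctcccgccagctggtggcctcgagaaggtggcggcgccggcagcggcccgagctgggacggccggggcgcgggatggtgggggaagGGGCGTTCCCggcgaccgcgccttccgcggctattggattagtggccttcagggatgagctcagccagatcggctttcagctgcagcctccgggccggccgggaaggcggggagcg
RBM20, DMSO-only, chr10:110644086-110644385, plus strand: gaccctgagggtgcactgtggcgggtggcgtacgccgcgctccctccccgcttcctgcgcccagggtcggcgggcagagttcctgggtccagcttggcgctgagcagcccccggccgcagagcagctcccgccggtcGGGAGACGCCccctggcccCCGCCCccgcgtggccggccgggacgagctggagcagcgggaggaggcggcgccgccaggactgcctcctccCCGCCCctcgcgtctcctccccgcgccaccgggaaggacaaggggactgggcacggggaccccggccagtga
TNS3, DMSO-only, chr7:47582062-47582361, minus strand: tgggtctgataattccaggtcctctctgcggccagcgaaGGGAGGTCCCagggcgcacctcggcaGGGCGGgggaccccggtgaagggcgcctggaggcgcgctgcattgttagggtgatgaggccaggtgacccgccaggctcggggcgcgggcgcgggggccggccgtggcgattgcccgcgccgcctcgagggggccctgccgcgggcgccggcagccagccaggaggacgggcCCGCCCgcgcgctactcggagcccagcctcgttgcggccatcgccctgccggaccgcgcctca
VNN2, DMSO-only, chr6:132763406-132763705, minus strand: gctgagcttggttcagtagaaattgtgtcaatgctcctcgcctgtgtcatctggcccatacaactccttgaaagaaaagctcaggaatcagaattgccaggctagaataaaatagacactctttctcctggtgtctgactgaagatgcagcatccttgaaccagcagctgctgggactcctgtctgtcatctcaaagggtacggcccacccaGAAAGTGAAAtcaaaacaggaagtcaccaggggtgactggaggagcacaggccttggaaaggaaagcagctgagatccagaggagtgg

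The 2 printed promoters in NSD2LDD-only regions belong to an extracellular matrix protein (SNED1) and the calcium pump of fast skeletal muscle (ATP2A1). The 4 in DMSO-only regions belong to an E3 ubiquitin ligase adaptor (SPSB4), a splicing regulator of cardiac titin (RBM20), a focal adhesion protein (TNS3) and a pantetheinase family member (VNN2). The names refer to day 10 alone: in DMSO day 4 libraries SNED1 was covered by 197 and 243 bases and ATP2A1 by 235 and 300, and the ATP2A1 window was covered in all 12 KMS11 libraries. In NSD2LDD day 4 libraries SPSB4 was covered by 125 and 300 bases, VNN2 by 0 and 260, TNS3 by 0 and 264 and RBM20 by 0 and 0. GGGCGG was found in 7 of the 15 NSD2LDD-only windows (46.7%) and in 30 of the 38 DMSO-only windows (78.9%), against 74.4% of the 12057 windows overlapping a region called in all 4 libraries and 56.3% of all windows. The NF-kappaB form was found in 33.3% of NSD2LDD-only and 52.6% of DMSO-only windows, against 31.8% and 29.0% in those same backgrounds. The interferon regulatory factor form was found in 0 of the 15 NSD2LDD-only and 4 of the 38 DMSO-only windows (10.5%), against 2.79% and 3.16%. The ETS motif, searched as CCGGAAG, was found in 0 of the 15 NSD2LDD-only and 3 of the 38 DMSO-only windows, against 12.8% of all windows. For the E-box, searched as CACGTG, these were 1 of the 15 NSD2LDD-only and 2 of the 38 DMSO-only windows, against 8.32% of all windows. The AP-1 motif TGANTCA was in 0 of the 15 NSD2LDD-only and 2 of the 38 DMSO-only windows, against 6.16% of all windows, and the RUNX motif TGTGGTT was in 1 of the 15 NSD2LDD-only and 1 of the 38 DMSO-only windows, against 3.7% of all windows. The cyclic AMP response element TGACGTCA was in 0 of the 15 NSD2LDD-only and 1 of the 38 DMSO-only windows, against 2.25% of all windows. Neither the GATA motif AGATAAG nor the NRF1 motif was found in either set of windows, against 2.29% and 1.49% of all windows. The median GC content was 65.3% in NSD2LDD-only windows and 69.7% in DMSO-only windows, and 62.3% over all windows. Both motifs rich in G and C can match by base composition alone, the windows are few, and these shares are descriptions with no test. Some windows belong to the same gene: the 15 windows are of 14 genes and the 38 of 33. NSD2LDD libraries had 54.8% and 55.0% of all promoter windows covered by at least 1 base, and DMSO libraries 56.9% and 53.6%.

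The first comparison asks whether the extent of accessible chromatin differed after 10 days of degrader. The NSD2LDD lists held 47698 and 42268 peaks, and the DMSO lists 49623 and 43576 peaks. Peaks covered 25.44 and 29.1 Mb in the NSD2LDD libraries and 31.84 and 20.89 Mb in the DMSO libraries. The DMSO libraries held both the highest and the lowest covered length, and the NSD2LDD libraries lay between them. Mean peak number was 44983 ± 3840 in NSD2LDD and 46599.5 ± 4280 in DMSO, and mean covered length 27.27 ± 2.59 Mb in NSD2LDD and 26.365 ± 7.74 Mb in DMSO (SD, n = 2 each). With all 4 lists shortened to 42268 peaks by the authors' -log10 q, coverage was 24.05 and 29.1 Mb in NSD2LDD and 29.43 and 20.63 Mb in DMSO. The groups overlapped in both measures, and the difference in means was smaller than the spread between libraries. The exact two-sided permutation test of 2 against 2 libraries cannot give a p below 0.333. Within each group the library with the greater covered length had the wider peaks. The median width was 421 and 583 bp in NSD2LDD libraries and 506 and 374 bp in DMSO libraries.

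**Figure D1:**
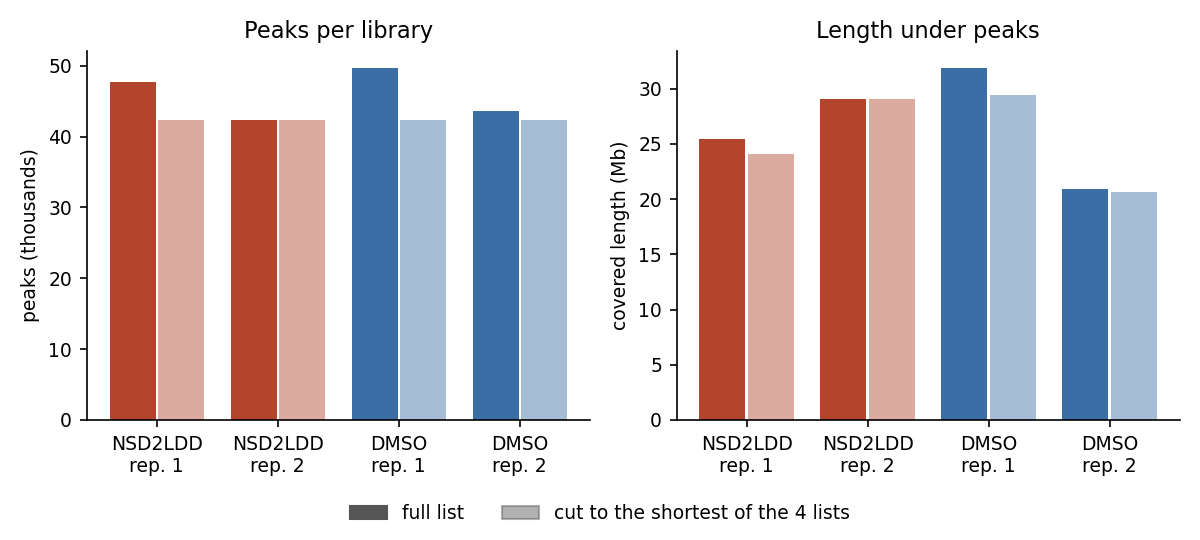
Peaks per library (left) and length under peaks (right, Mb) in the 2 NSD2LDD and 2 DMSO day 10 libraries of KMS34; dark bars show full lists and pale bars lists cut to 42268 peaks. Covered length runs from 20.89 to 31.84 Mb, and both ends of that range are DMSO libraries.

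The lists hold no read counts, so sequencing depth is unknown, and an uncalled peak may be closed chromatin or too few reads. Over the whole series the lists held 24979 to 52518 peaks, and the 2 KMS34 DMSO day 4 libraries stood farthest apart within a group, with 34165 and 52518. In overlap of covered bases (Jaccard index), pairs of KMS34 libraries of the same group ranged from 0.551 to 0.632 (5 pairs) and pairs of different groups from 0.544 to 0.681 (40 pairs). Libraries of one group were therefore no more alike than libraries of different groups. All 8 plasma cell markers (among them SDC1, IRF4, PRDM1 and XBP1) had a peak within 1 kb of a gene end in each of the 4 libraries. Of the 6 B cell markers 2 did in each, and MS4A1, PAX5 and CD79A were among those at 0. Of 7 myeloid markers and of 6 erythroid and megakaryocyte markers 1 did in each library. Of 8 T and NK cell markers 4 and 3 did in NSD2LDD libraries, against 4 and 4 in DMSO libraries, and of 6 stromal and endothelial markers 2 and 2 in NSD2LDD libraries, against 2 and 1 in DMSO libraries.

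The second comparison asks which regions differed between degrader and vehicle. The covered bp of each region was tested with limma over the 10 KMS34 libraries, on log2(bp + 100) less each library's median, with Benjamini-Hochberg adjustment over the 46638 regions called in at least 2 of the 4 libraries. At an adjusted p under 0.05, 1 region was lower in NSD2LDD (0.00214% of those tested) and 0 were higher (0%), while 4087 (8.76%) had an unadjusted p under 0.05. After scaling, the groups did not overlap in 16.3% of the tested regions with NSD2LDD lower and in 14.5% with NSD2LDD higher. The one that passed lies at chr12:8644481-8645352 (hg38), 590 bp outside the lower-coordinate end of MFAP5, which encodes a microfibril-associated glycoprotein of the extracellular matrix. Peaks covered 0 and 0 bp of it in NSD2LDD day 10 libraries, against 872 and 619 bp in DMSO day 10 libraries. It was also covered in every other KMS34 library, by 788 and 635 bp in NSD2LDD day 4 libraries, 575 and 572 bp in DMSO day 4 libraries and 713 and 627 bp at day 0. The 2 NSD2LDD day 10 libraries were the only ones of the 10 without a peak there. The region fell by 3.15 on the log2(bp + 100) scale (SE 0.26, limma adjusted p = 0.00729). That fold depends on the bases added, being -4.76 with 30 bp and -1.85 with 300 bp, and is no bound.

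The MFAP5 region missed the threshold without scaling (limma adjusted p = 0.0996), in a fit of the 4 compared libraries alone (0.724) and without the DMSO day 4 libraries (0.0679); with either DMSO day 10 library left out it was called in too few libraries to be tested. The number of regions that passed moved with the fit: 1009 lower and 774 higher with all 22 libraries, 441 lower and 381 higher without the trend and robust settings, 444 lower and 420 higher over 250 bp either side of summits, and, leaving out 1 library, 28 lower and 0 higher without NSD2LDD replicate 1, 3 lower and 0 higher without NSD2LDD replicate 2, 0 lower and 77 higher without DMSO replicate 1, and 0 of either without DMSO replicate 2. The filter of at least 2 calls was applied to the libraries that stayed. Without a DMSO library no DMSO-only region was tested, and without an NSD2LDD library no NSD2LDD-only region. The direction of the counts with 1 library left out thus follows in part from the filter. Of the 1783 regions that passed with all 22 libraries, 1390 (78%) were called in no KMS11 library, where they show no spread, against 26.3% of all tested regions.

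The 12 regions of smallest p were all lower in NSD2LDD. This set was picked after its values were seen, and the 11 below MFAP5 did not pass. A region over the start of SPSB4 (chr3:141050756-141051809), whose promoter is printed above, had 0 and 0 bp in NSD2LDD against 1054 and 433 bp in DMSO (limma log2 difference -3.05 ± 0.38 SE, adjusted p = 0.14). It was covered in all 6 other KMS34 libraries by 379 to 552 bp and in no KMS11 library. A region 21937 bp from SNX9, an endocytic sorting nexin, had 0 and 0 bp in NSD2LDD against 522 and 582 bp in DMSO, and 471 to 582 bp in the 6 other KMS34 libraries (adjusted p = 0.14). In both regions the NSD2LDD day 10 libraries again stood apart from the other 8. At one end of PXDC1 the region was covered in all 4 libraries, with 378 and 418 bp in NSD2LDD against 1259 and 904 bp in DMSO (adjusted p = 0.14). The region at PRTG, a neural surface protein of the immunoglobulin superfamily, had 282 and 368 bp in NSD2LDD against 1072 and 700 bp in DMSO (adjusted p = 0.213). The region at SHROOM2, an actin-binding protein, had 0 and 0 bp in NSD2LDD against 636 and 481 bp in DMSO (adjusted p = 0.213). The other 6, near PKIA, EPHB1, CYRIA, FRMD4A, IGSF11 and ADAMTS16, were at 0 bp in both NSD2LDD libraries and called in all 8 other KMS34 libraries.

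**Figure D2:**
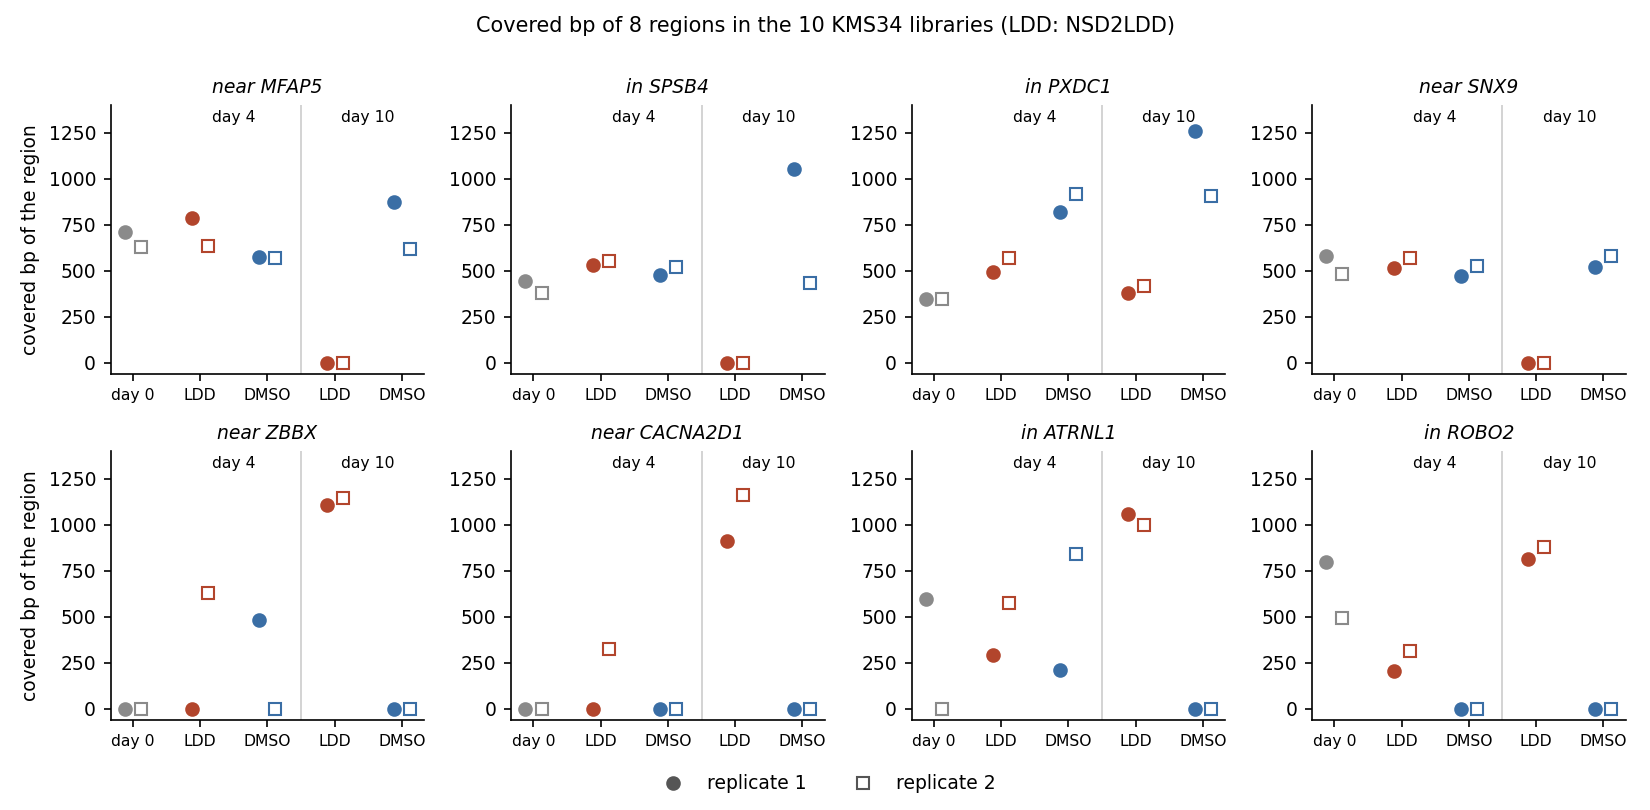
Covered bp of 8 regions (vertical axis) in the 10 KMS34 libraries, by group along the horizontal axis; each point is 1 library, filled for replicate 1 and open for replicate 2. In the upper row the 3 regions near MFAP5 and SNX9 and at SPSB4 are at 0 bp only in the NSD2LDD day 10 libraries, while the lower row shows 4 NSD2LDD-only regions, of which the one in ROBO2 was also called in both day 0 libraries.

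The largest DMSO-only regions by mean covered bp, among those found with full and with equal lists, lay mostly outside genes. The region nearest GRID1, a glutamate receptor subunit gene 280058 bp away, had 0 and 0 bp in NSD2LDD against 1573 and 259 bp in DMSO. The region 18529 bp from VIT, a matrix protein gene, had 0 and 0 bp in NSD2LDD against 780 and 783 bp in DMSO. Regions overlapping GSX2 and 11700 bp from LHX2, both homeobox transcription factor genes, had 0 and 0 bp each in NSD2LDD, against 1345 and 179 bp (GSX2) and 1208 and 306 bp (LHX2) in DMSO. In the regions of GRID1, GSX2 and LHX2 the first DMSO library was far above the second. The regions near the adhesion genes CDH11 (1314226 bp away) and NECTIN1 (53247 bp away) were even between replicates, with 746 and 670 bp and with 650 and 745 bp in DMSO, against 0 bp in both NSD2LDD libraries. The remaining 2, near HSD17B10 and in the guidance gene SEMA5A, had 1104 and 363 bp and 1146 and 243 bp in DMSO. None of these passed the test (limma adjusted p = 0.511 for each of the 8).

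The NSD2LDD-only regions of the same rank are given next. In ROBO2, the Slit receptor gene, a region had 816 and 881 bp in NSD2LDD against 0 and 0 bp in DMSO. It was covered by 205 and 312 bp in NSD2LDD day 4 libraries, by 0 and 0 bp in DMSO day 4 libraries and by 797 and 495 bp at day 0. Of the 10 KMS34 libraries the 4 in DMSO were thus the ones without a peak there (limma log2 difference at day 10 of 3.16 ± 0.63 SE, adjusted p = 0.491). The region nearest ZBBX, 616845 bp away, had 1109 and 1143 bp in NSD2LDD against 0 and 0 bp in DMSO, and the region 20529 bp from CACNA2D1, a calcium channel subunit gene, 911 and 1161 bp in NSD2LDD against 0 and 0 bp in DMSO. Outside day 10 the CACNA2D1 region was called in 1 of 6 KMS34 libraries, an NSD2LDD day 4 library, with 325 bp. Regions in ATRNL1 (1058 and 1000 bp in NSD2LDD), in SPAG16, a sperm axoneme gene (894 and 1012 bp), in ROS1, a receptor tyrosine kinase gene (634 and 1032 bp), and in GRM8, a metabotropic glutamate receptor gene (960 and 692 bp), were at 0 bp in both DMSO day 10 libraries. The remaining 3, in CHSY3, at LOC124900986 and nearest YTHDF3, had 378 to 1233 bp in NSD2LDD libraries. The adjusted p was 0.491 for ROBO2 and 0.511 for each of the other 9.

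The third comparison asks where the one-group regions lie. Regions within 1 kb of either end of a protein-coding gene made up 3.55% of NSD2LDD-only regions (48 of 1352) and 4.3% of DMSO-only regions (83 of 1931), against 34.7% of regions called in all 4 libraries and 19.0% of all regions. Regions more than 50 kb from any gene made up 35.6% of NSD2LDD-only and 37.7% of DMSO-only regions, against 16.1% of regions called in all 4 libraries. Regions of one group were thus seldom at gene ends and often distal, in both directions alike. They were also weaker: the median of the authors' -log10 q was 7.69 and 5.75 for NSD2LDD-only regions in their 2 libraries and 10.5 and 6.66 for DMSO-only regions in theirs, against 20.6 to 39.3 for regions called in all 4. The part of peak strength in their position was not tested. By chromosome, the number of NSD2LDD-only regions per DMSO-only region ran from 0.273 on chromosome 22 (6 and 22 regions) to 0.985 on chromosome 9 (66 and 67 regions), and DMSO-only regions were the more numerous on every chromosome. At equal list lengths there were 1425 NSD2LDD-only (2.52%) and 1719 DMSO-only regions (3.04%) of 56589, and 29278 (51.7%) were called in all 4. Of the full-list regions 987 NSD2LDD-only (73%) and 1460 DMSO-only (75.6%) were also found at equal lengths.

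**Figure D3:**
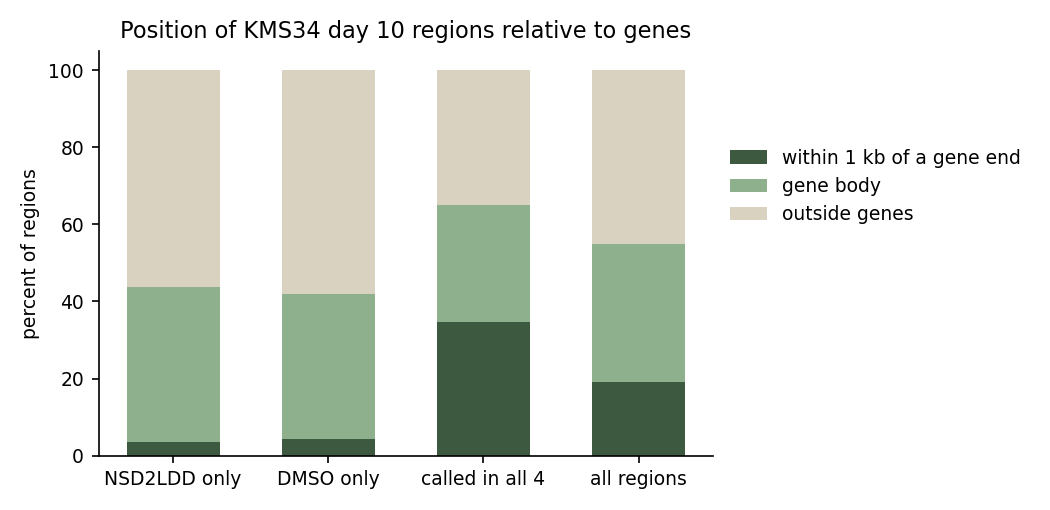
Percent of regions (vertical axis) within 1 kb of a gene end, in gene bodies and outside genes, for NSD2LDD-only, DMSO-only, all-library and all regions of the 4 lists. Gene ends make up 3.55% and 4.3% of the regions of one group and 34.7% of those called in all 4 libraries.

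Some genes held several regions of one group. At least 3 NSD2LDD-only regions stood in 7 genes, and at least 3 DMSO-only regions in 25 genes. ERBB4, a receptor tyrosine kinase gene, held 4 NSD2LDD-only regions of its 29 regions of the 4 lists, and NAALADL2 4 of 43. GSE1 (of 42), HDAC9 (of 30), NLGN1 (of 34), OXR1 (of 39) and SYT1 (of 23) held 3 each. CSMD1 (of 26), DAB1 (of 13), FHIT (of 12), LHFPL3 (of 16), PDE4D (of 50), PLB1 (of 8) and TRHDE (of 11) held 4 DMSO-only regions each. These genes were long: the median length was 898 kb for the 7 and 853 kb for the 25, against 31.4 kb for all genes tested. PLB1, a phospholipase gene of 148.1 kb, was among the shorter, and 4 of the 8 regions of the 4 lists that it holds were DMSO-only. PDE4D also held 2 NSD2LDD-only regions and TRHDE 1, and NLGN1 also held 2 DMSO-only regions and GSE1 1, so that these genes held regions of both kinds. Over all regions of the 4 lists 2.1% were NSD2LDD-only and 3% DMSO-only. A gathering of one-group regions in the named genes was not tested.

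The fourth comparison asks which genes differed in covered length over the gene and 5 kb either side. Of 15841 genes tested with limma, 1 was lower in NSD2LDD (0.00631%) and 0 were higher (0%) at an adjusted p under 0.05, and 698 (4.41%) had an unadjusted p under 0.05. That gene was MFAP5, through the region described above: 0 and 0 bp in NSD2LDD against 872 and 619 bp in DMSO (log2(bp + 200) difference -2.27 ± 0.24 SE, limma adjusted p = 0.0293). Its window overlaps that of RIMKLB. MFAP5 is the nearest protein-coding gene to the region, 590 bp away, but which gene the peak belongs to was not tested. The MFAP5 call was lost in 9 of the alternatives, among them no scaling (limma adjusted p = 0.167) and the replicate block (0.0914). With either DMSO day 10 library left out MFAP5 was covered in too few libraries to be tested.

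Among genes of smallest p that did not pass, TNS3 had 0 and 0 bp in NSD2LDD against 2700 and 763 bp in DMSO (limma adjusted p = 0.236). It was covered in all 6 other KMS34 libraries, by 492 to 1525 bp, and 3 of its 6 regions, the printed promoter among them, were DMSO-only. BRD1, a bromodomain scaffold of histone acetyltransferase complexes, had 208 and 366 bp in NSD2LDD against 1641 and 584 bp in DMSO. At day 4 it had 296 and 252 bp in NSD2LDD against 1057 and 1327 bp in DMSO. The NSD2LDD libraries of both days lay below the DMSO libraries of both days, and the day 0 libraries had 752 and 416 bp of BRD1. NKAIN3 (726 and 613 bp in NSD2LDD against 3691 and 1890 bp in DMSO) and PDE3A, a cyclic nucleotide phosphodiesterase gene (1818 and 1371 bp in NSD2LDD against 3710 and 2328 bp in DMSO), also lay lower in NSD2LDD at day 4 without overlap after scaling. The other 5 lower genes named by p, SVIL, ZNF618, PLB1, KLHL14 and VIPR2, had log2 differences between -1.10 and -0.87 and overlapped at day 4. The adjusted p was 1.0 for each of these 8.

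On the other side, SLC4A10, a sodium and bicarbonate transporter gene, had 1729 and 1642 bp in NSD2LDD against 818 and 673 bp in DMSO. At day 4 it had 1627 and 1787 bp in NSD2LDD against 574 and 1084 bp in DMSO. All 4 NSD2LDD libraries lay above all 4 DMSO libraries. The day 0 libraries, with no treatment named, had 1736 and 1406 bp of SLC4A10, also above all 4 DMSO libraries. NAALADL2 had 10537 and 11193 bp in NSD2LDD against 6708 and 5098 bp in DMSO, and at day 4 had 10351 and 8731 bp in NSD2LDD against 4478 and 7588 bp in DMSO, again with no overlap on either day. Its day 0 libraries had 8327 and 4715 bp. COL1A2, a type I collagen gene, had 970 and 1347 bp in NSD2LDD against 402 and 103 bp in DMSO, and overlapped at day 4. PIR, NDUFAF7, MRPL13 and SLC38A11 were higher in NSD2LDD without overlap on both days, and HS2ST1 and LOC124904304 at day 10 alone. None of the 10 higher genes of smallest p passed (limma adjusted p = 1.0 for each). In all, 7 of the 10 were higher without overlap at day 4, against 17.2% of all genes tested, and 3 of the 10 lower genes were lower without overlap at day 4, against 16.5%. The day 4 libraries entered the estimate of spread that ranked these genes, so the counts are a description. Over all genes that did not overlap at day 10, 571 of the 2248 higher ones (25.4%) were higher and 250 (11.1%) lower without overlap at day 4. Of the 2129 lower ones, 443 (20.8%) were lower and 272 (12.8%) higher. Of regions without overlap at day 10, 1684 of the 6740 higher ones (25.0%) were higher and 751 (11.1%) lower at day 4, and 1403 of the 7612 lower ones (18.4%) were lower and 1240 (16.3%) higher, against 21.9% higher and 14.7% lower among all tested regions. Of the 10 lower regions of smallest p, 4 were lower and 4 higher at day 4. The day 4 and day 10 comparisons share no library.

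None of 6 genes of the translocation and of plasma cell and myeloma biology passed the test. NSD2 had 1973 and 740 bp in NSD2LDD against 4060 and 690 bp in DMSO (log2 difference -0.49 ± 0.54 SE), in a window that overlaps NELFA. FGFR3, the growth factor receptor gene carried by the same translocation, had 1276 and 1861 bp in NSD2LDD against 2040 and 1544 bp in DMSO. IRF4, the transcription factor on which myeloma cells depend, had 1422 and 1371 bp in NSD2LDD against 3114 and 1233 bp in DMSO. MYC had 2238 and 2983 bp in NSD2LDD against 3406 and 2049 bp in DMSO. The cyclin gene CCND2 had 2336 and 2269 bp in NSD2LDD against 2667 and 1692 bp in DMSO, and the transcription factor gene MAF 4536 and 5037 bp in NSD2LDD against 7539 and 3583 bp in DMSO. In each of these 6 genes an NSD2LDD library lay between the 2 DMSO libraries in unscaled bp. After the scaling used in the test, FGFR3 (log2 difference -0.22 ± 0.20 SE) and IRF4 (-0.49 ± 0.29) were lower in NSD2LDD without overlap and the other 4 overlapped (limma adjusted p = 1.0 for each of the 6). Open chromatin at NSD2 is no measure of the NSD2 protein that the degrader acts on.

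No gene list held a called gene in either direction. Against the background of all genes, 13.4% of which were lower and 14.2% higher in NSD2LDD without overlap between the groups after scaling, 9 of 37 tested developmental regulators were lower and 6 higher, with a median log2 difference of -0.019, against -0.0016 for all genes. LHX2 had 773 and 743 bp in NSD2LDD against 2184 and 978 bp in DMSO, and FOXA1, a pioneer transcription factor gene, 0 and 0 bp in NSD2LDD against 643 and 295 bp in DMSO. FOXA1 also had 0 and 0 bp in NSD2LDD at day 4, against 398 and 351 bp in DMSO at day 4, and 347 and 0 bp at day 0. None of the 4 NSD2LDD libraries had a FOXA1 peak and all 4 DMSO libraries did, in a window that overlaps TTC6 (limma adjusted p = 1.0 at day 10). Of 28 adhesion and migration genes 4 were lower and 7 higher (median 0.059), among them ITGB2, the shared beta chain of leukocyte integrins, with 1607 and 2431 bp in NSD2LDD against 1568 and 902 bp in DMSO. Of 24 interferon response genes 2 were lower and 7 higher (median 0.087), and of 28 cell cycle genes 2 and 6 (median 0.027), with CDK6 at 12933 and 17182 bp in NSD2LDD against 13067 and 9105 bp in DMSO.

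Of 28 AP-1 and MAPK genes 3 were lower and 2 higher (median -0.03). The AP-1 subunit genes FOSL2 and FOSL1 had the smallest p of that list, with 1487 and 1826 bp (FOSL2) and 1824 and 2122 bp (FOSL1) in NSD2LDD, against 2792 and 1870 bp and 2935 and 2049 bp in DMSO. Of 15 genes tied to t(4;14) and NSD2, 2 were lower and 5 higher (median 0.087), and of 27 plasma cell and myeloma survival genes 2 and 2 (median 0.057), among them IKZF1 with 2464 and 3217 bp in NSD2LDD against 2191 and 1655 bp in DMSO. Of 13 B cell genes 3 were lower and 1 higher (median -0.042), of 20 NF-kappaB genes 3 and 4 (median 0.017), and of 29 genes of H3K36 and H3K27 methylation 1 and 5 (median 0.0011). TRAF3, an inhibitor of non-canonical NF-kappaB signalling, had 641 and 1149 bp in NSD2LDD against 1434 and 1715 bp in DMSO. Of 29 housekeeping genes 3 were lower and 6 higher (median 0.019). The medians of these 11 gene lists all lay within 0.1 of that of all genes on the log2 scale. Among the short lists of cell type markers, the 5 B cell markers tested had a median of -0.16 and the 3 myeloid markers of 0.19, with none called. These 2 were the extremes. The medians were 0.091 for 8 plasma cell, 0.002 for 6 T and NK cell, 0.06 for 4 erythroid and megakaryocyte and 0.023 for 6 stromal and endothelial markers.

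The fifth comparison follows the one-group regions to the other KMS34 libraries. NSD2LDD-only regions were called at shares of 37.7% and 47.1% in NSD2LDD day 4 libraries, 10.1% and 46.2% in DMSO day 4 libraries and 28.0% and 20.4% at day 0. DMSO-only regions were called at shares of 44.5% and 59.2% in NSD2LDD day 4 libraries, 24.8% and 71.2% in DMSO day 4 libraries and 45.0% and 36.5% at day 0. The day 4 lists differed in length as well, with 44220 and 49543 peaks in NSD2LDD and 34165 and 52518 peaks in DMSO, and the part of list length in these shares was not tested. In both day 0 libraries the NSD2LDD-only regions were called less often than the DMSO-only regions, a difference that was not tested. Regions called in both day 0 libraries numbered 122 of the NSD2LDD-only (9.02%) and 428 of the DMSO-only regions (22.2%). Regions called in all 6 other KMS34 libraries numbered 9 of the NSD2LDD-only (0.666%) and 129 of the DMSO-only regions (6.68%), and those called in none of them 290 (21.4%) and 187 (9.68%). The same pattern at day 4, in 2 of 2 libraries of the matching group and 0 of 2 of the other, held for 85 NSD2LDD-only (6.29%) and 42 DMSO-only regions (2.18%), and the opposite one for 14 (1.04%) and 73 (3.78%). The shares of all regions of the 4 lists with these patterns were not computed, so the counts are a description without a background. In limma's test of the day 10 minus the day 4 effect 0 regions passed, while 2172 had an unadjusted p under 0.05, and the smallest adjusted p was 0.0774, that of the MFAP5 region. A difference between the days was therefore not shown for any region.

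**Figure D4:**
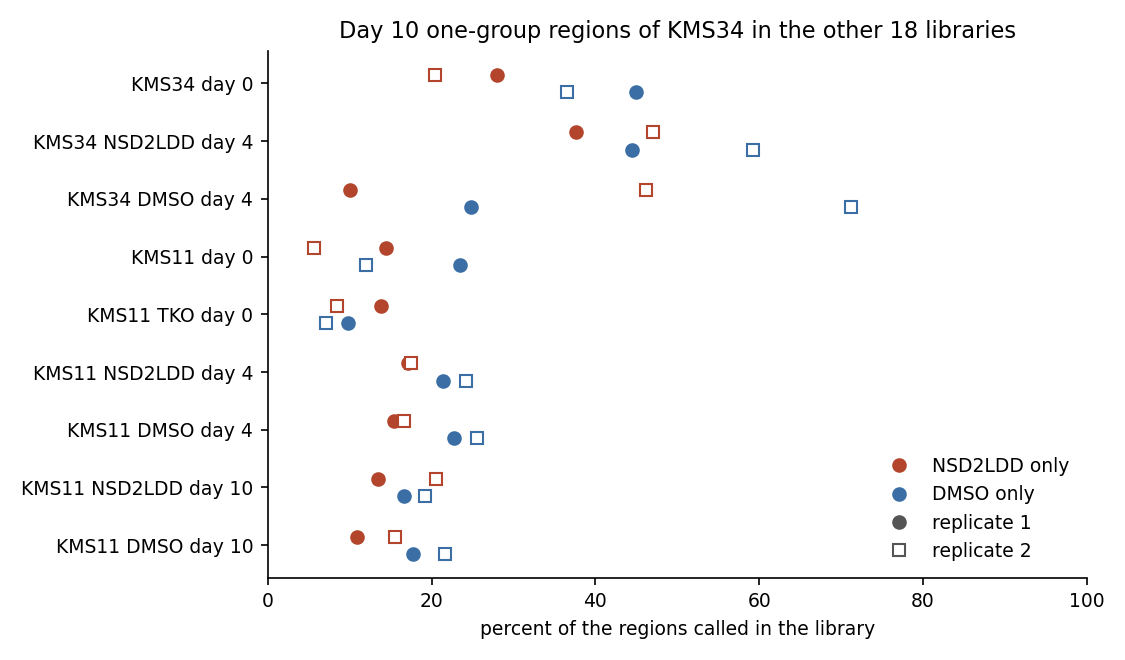
Percent of NSD2LDD-only and of DMSO-only regions (horizontal axis) called in each of the other 18 libraries, by group down the page; filled points are replicate 1 and open points replicate 2. In the KMS34 day 0 libraries the values are 28.0% and 20.4% for NSD2LDD-only and 45.0% and 36.5% for DMSO-only regions, and in the KMS11 TKO libraries 13.8% and 8.43% for NSD2LDD-only and 9.84% and 7.15% for DMSO-only regions.

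The sixth comparison follows them to KMS11, whose libraries took no part in choosing them. It was chosen after the KMS34 values were seen, and its differences in share were not tested. DMSO-only regions of KMS34 were often called in neither TKO library. Of the regions called in both t(4;14) KMS11 day 0 libraries, 11 of 62 NSD2LDD-only regions (17.7%) and 111 of 202 DMSO-only regions (55.0%) were called in neither TKO library. The same held for 1122 of 16847 regions called in all 4 KMS34 libraries (6.66%). Among regions called in 1 NSD2LDD and 1 DMSO library of KMS34, which like the one-group regions had 2 calls of 4, it held for 92 of 295 (31.2%). With every list cut to 24979 peaks the shares were 14.6% of NSD2LDD-only (7 of 48), 55.9% of DMSO-only (95 of 170), 6.89% of all-library (1073 of 15565) and 32.9% of these mixed regions (77 of 234). In the opposite direction, 13 of 79 NSD2LDD-only regions called in both TKO libraries (16.5%) were called in neither t(4;14) day 0 library, against 10 of 103 DMSO-only (9.71%) and 79 of 350 mixed regions (22.6%). With equal lists these were 21.0% of NSD2LDD-only (13 of 62), 17.0% of DMSO-only (15 of 88) and 30.8% of mixed regions (82 of 266), so NSD2LDD-only regions lay below mixed ones in both. The TKO lists held 30699 and 26887 peaks, against 36913 and 24979 in the t(4;14) day 0 lists. Regions of 1 library are not replicates, and the TKO libraries differ from those of KMS34 in cell line as well as in genotype.

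Degrader-treated KMS11 showed a smaller share of the same kind. Of the regions called in both KMS11 DMSO day 10 libraries, 6 of 109 NSD2LDD-only (5.5%) and 34 of 279 DMSO-only regions (12.2%) were called in neither KMS11 NSD2LDD day 10 library. For mixed regions this was 41 of 577 (7.11%) and for all-library regions 205 of 19854 (1.03%). With equal lists it was 3.77% of NSD2LDD-only (2 of 53), 16.8% of DMSO-only (27 of 161) and 7.86% of mixed regions (22 of 280). Conversely, of NSD2LDD-only regions called in both KMS11 NSD2LDD day 10 libraries 24 of 140 (17.1%) were called in neither KMS11 DMSO day 10 library, against 18 of 250 DMSO-only (7.2%) and 72 of 623 mixed regions (11.6%). With equal lists these were 14.1% of NSD2LDD-only (9 of 64), 5.52% of DMSO-only (8 of 145) and 8.39% of mixed regions (24 of 286). At day 4, of the regions called in both KMS11 DMSO libraries, 15 of 136 NSD2LDD-only (11%), 19 of 352 DMSO-only (5.4%), 68 of 681 mixed (9.99%) and 205 of 20647 all-library regions (0.993%) were called in neither NSD2LDD library. With equal lists these were 5.26% of NSD2LDD-only (3 of 57), 9.09% of DMSO-only (16 of 176), 10.2% of mixed (29 of 284) and 1.19% of all-library regions (203 of 17085), so the order of NSD2LDD-only and DMSO-only regions at day 4 turned with list length.

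**Figure D5:**
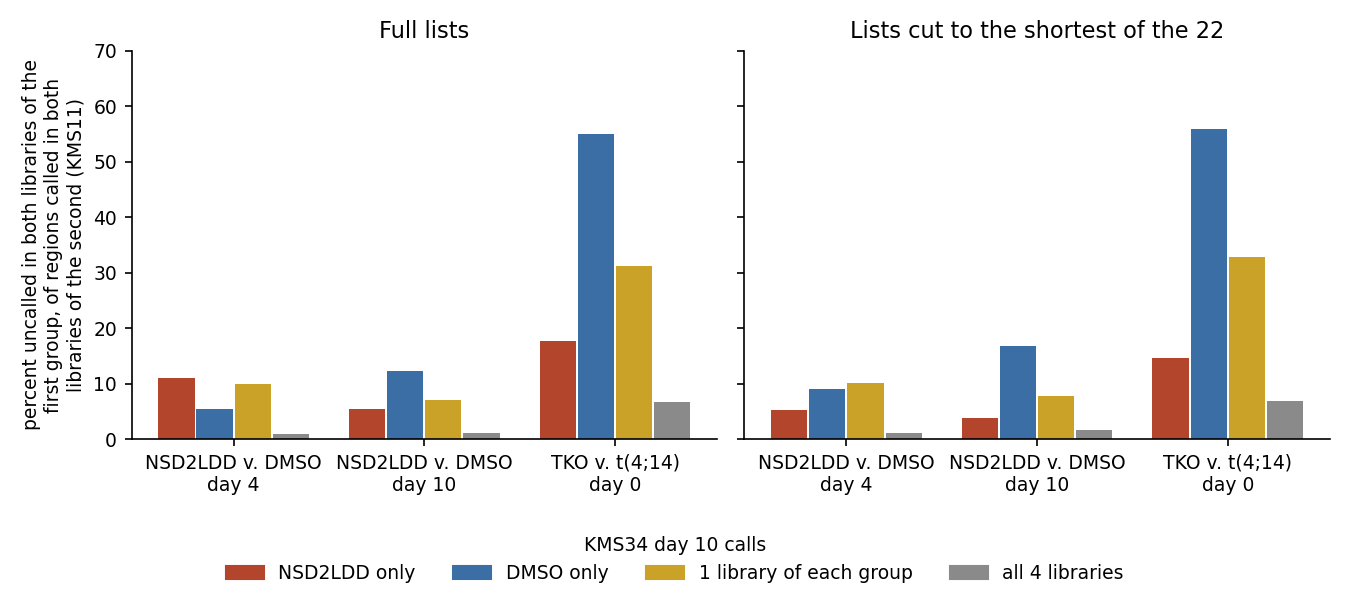
Percent of regions called in both KMS11 libraries of the second-named group that were called in neither library of the first-named (vertical axis), for 3 KMS11 contrasts and for 4 kinds of KMS34 day 10 region, with full lists (left) and lists cut to 24979 peaks (right). For TKO the NSD2LDD-only bars stand at 17.7% and 14.6% and the DMSO-only bars at 55.0% and 55.9%.

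The regions of smallest p were followed to KMS11 in the same way. The MFAP5 region was called in both libraries of each of the 5 t(4;14) KMS11 groups, the NSD2LDD-treated ones included, and in neither TKO library. Of the 12 regions of smallest p, 7 were called in a KMS11 library other than TKO, and all 7 were called in neither TKO library, against 29.7% (10074 of 33880) of tested regions with such a call. Both day 0 libraries of t(4;14) KMS11 called 4 of them (MFAP5, SNX9, FRMD4A and ADAMTS16), against which the background is 8.94% in neither TKO library (1637 of 18304). These 4 are DMSO-only regions called in all 6 other KMS34 libraries, a kind for which the share was far higher than this background. Of regions of that kind called in both t(4;14) KMS11 day 0 libraries, 20 of 25 (80.0%) were called in neither TKO library. Of all DMSO-only regions so called it was 111 of 202 (55.0%). The regions at PRTG and SHROOM2 were called in 1 of these 2 day 0 libraries and that at PXDC1 in 0, so for these 3 the TKO libraries show no clear loss. The regions near SNX9 and in FRMD4A, a FERM domain gene, were called in both libraries of KMS11 at day 0, in NSD2LDD at day 4 and in DMSO at both days, and in neither library of NSD2LDD at day 10 nor of TKO. The next count has no background, as the share over all regions with such calls was not computed. The nearest share is the 20 of 25 (80.0%) above, which comes from the same 129 regions. Of the 129 DMSO-only regions called in all 6 other KMS34 libraries, 15 were also called in all 10 KMS11 libraries other than TKO, and 10 of these 15 were called in neither TKO library. Besides the MFAP5 region these 10, singled out after their values were seen, included one 4611 bp from PDK4, a kinase that inhibits pyruvate dehydrogenase, with 0 and 0 bp in NSD2LDD against 280 and 444 bp in DMSO. Another lay in SYN3, a synapsin gene, with 0 and 0 bp in NSD2LDD against 754 and 331 bp in DMSO, and another in PARD3B, a cell polarity gene, with 0 and 0 bp in NSD2LDD against 566 and 314 bp in DMSO. The other 6 lay outside genes, near SLC35F3, SLC7A14, PDHA2, ADAMTS16, ATP6V1H and CA8, 6864 to 401784 bp away.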

How the data were processed

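ATAC-seq peaks were called in each library separately by the authors; the submitters' processing notes name fastp, BWA, SAMtools, Picard, MACS3 and deepTools with hg38. Tool versions, calling settings and any Tn5 shift are not stated there. The score the authors deposited for a peak is its -log10 q times 10, cut to a whole number. Their deposited fold enrichment, a ratio to the caller's background, and their deposited -log10 p-value were not used. The deposited -log10 q-value served to rank and filter peaks within a list.

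Peaks of the 4 lists were merged into regions (bedtools 2.31.1 as a check on simulated intervals), and covered bp per library was taken for each region and for each RefSeq protein-coding gene with 5 kb either side (GRCh38.p14). limma 3.58.1 in R 4.3.3 was fitted over the 10 KMS34 libraries in 5 groups, with trend and robust settings, on log2(bp + 100) per region or log2(bp + 200) per gene, centred on the median, in each library, of features covered in all 10. The width of the narrowest peak in the list differed by library (162 and 231 bp in NSD2LDD, 209 and 149 bp in DMSO), so covered bp may hold a technical part. KMS11 libraries were left out of the main fit because regions not called there show no spread; they entered the test between lines. The test was tried on simulated data in which each region was covered in every KMS34 library. That trial does not cover regions without a peak in a group, such as the one-group regions.

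The groups, gene lists and named items were chosen with earlier results of these data known. Named regions were those that passed, filled to 10 a direction with one-group regions found with full and equal lists, by mean covered bp; named genes were filled to 10 by smallest p, with 2 a list, genes with several one-group regions, and always MAF, IRF4, CCND2, MYC, FGFR3 and NSD2. Of the genes this names, 1 is not reported here, though the counts include it. The KMS11 shares, the day 4 counts and the 12 regions of smallest p were added after these values were seen. Alternatives changed list length, peak threshold, scaling, fitted libraries, filters, bases added, windows and replicate terms. No genome was used, so sequences are RefSeq promoters alone.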

Additional observations from a re-analysis of the deposited data

Results flagged for a closer look

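The effect of NSD2LDD at day 10 differed between the lines in limma's interaction test over all 22 libraries, with 187 regions lower and 180 higher in KMS34 than in KMS11 at an adjusted p under 0.05, of 46638. With the 8 day 10 libraries alone 0 regions passed by the same test (3858 had an unadjusted p under 0.05). For the fits without 1 library, the filter of at least 2 calls removed the one-group regions of the group that lost a library. Without KMS34 DMSO replicate 1 there were 2 lower and 10 higher, without DMSO replicate 2 there were 0 and 3, without NSD2LDD replicate 1 there were 537 and 17, and without NSD2LDD replicate 2 there were 11 and 4.

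Of the 367 regions, 297 (144 lower and 153 higher in KMS34) were called in no KMS11 library. For such a region the difference only restates the KMS34 effect and shows nothing about KMS11. This holds for 6 of the 13 named regions that passed, with log2 differences of -3.04 (SPSB4), -2.87 (EPHB1), -2.57 (IGSF11), -2.51 (CYRIA), -2.48 (PKIA) and 3.17 (ROBO2). The other 7 were called in all 10 KMS11 libraries other than TKO, and their effect was lower in KMS34. The MFAP5 region had a log2 difference of -2.67 ± 0.30 and the ADAMTS16 region of -3.10 ± 0.37 (SE, limma adjusted p = 0.00413 for each). The regions near ATP6V1H (-2.39), PDK4 (-2.25), PDHA2 (-2.20), SLC35F3 (-2.19) and CA8 (-2.06) had adjusted p-values of 0.0363 to 0.0474. All 7 are among the 10 regions singled out for a call in every KMS11 library other than TKO and none in NSD2LDD day 10 libraries of KMS34, so their difference follows in part from that choice.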

How the results depend on the processing

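The number of regions that passed, 1 in the comparison as reported, was 13 with lists of equal length, 3 at a -log10 q of 5 or more, 1783 with all 22 libraries, 822 without trend and robust, 864 over summits, 2 without the filter on calls, 2 with regions merged over 22 lists, and 0 without scaling, with the 4 libraries alone, at 3 or more calls or without the DMSO day 4 libraries; leaving out 1 library gave 0 to 77. With 30 or 300 bp added it stayed at 1. The filter at 3 or more calls removes every one-group region, and leaving out a library removes those of its group. In the limma tests of this section lists of equal length hold 34165 peaks, the shortest of the 10 KMS34 lists. In the test between lines they hold 24979 peaks, the shortest of the 22. The number of genes, 1 as reported, was 2 with equal lists, with all 22 libraries and with 50 bp added, 1 at a -log10 q of 5, without trend and robust and without the filter, and 0 in the other alternatives, each left-out library included. The day 10 minus day 4 test gave 7 regions with equal lists, 789 with all 22 libraries, 112 without trend and robust, and 0 to 3 with 1 library left out. The test between lines, 367 as reported, gave 324 with equal lists, 687 without scaling, 0 with the 8 day 10 libraries and 3 to 554 with 1 library left out.

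Same-numbered libraries of the 2 groups did not deviate together (correlation of deviations -0.023 over regions and -0.1 over genes), so the numbers were not taken as pairs; with the replicate block 1 region, 0 genes and 0 regions of the day test passed, and with crossed numbers 1 region and 0 genes.

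Mean peak number at a -log10 q of 5 or more was 39877 in NSD2LDD and 42005.5 in DMSO, and 42268 in both at equal lengths. With a 5 kb window 11% of NSD2LDD-only and 12% of DMSO-only regions were at gene ends, and with equal lists 3.42% of DMSO-only ones. The 20 named regions kept their sign in every alternative that tested them. Of 48 named genes 7 changed sign: NSD2 (0.44 with equal lists, 0.17 at a -log10 q of 5, 0.017 at gene ends, -1.38 to 0.41 with 1 library left out), MYC (0.11 with equal lists, 0.12 at gene ends, -0.18 to 0.033 with 1 library left out), MAF (-0.44 to 0.12 with 1 library left out), ASH1L (-0.08), BLK (0.022) and NAALADL2 (-0.07) at gene ends, and CCND2 (-0.0014 at gene ends, -0.043 to 0.16 with 1 library left out). The cause was not tested. In these gene values equal lists hold 34165 peaks. Depth, unknown in these lists, and 2 libraries a group limit every comparison.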
